A study of Mus musculus with 10 samples.

Results

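The neutrophil granule and surface genes described here are 10 genes whose products are known from neutrophils: S100a8, S100a9, Ltf, Camp, Ngp, Mmp8, Cxcr2, Csf3r, Retnlg and Padi4. They were chosen by name and found by symbol among the 22607 genes obtained when the deposited transcripts were summed per gene, and all 10 were measured in all 10 libraries. The study sequenced polyadenylated RNA of antigen-presenting cells, and its mice were C57BL/6, wild type and 8 weeks of age in every group, with no treatment named. There were 2 libraries for each of 5 groups. The groups were splenic MHCII+ cells, colonic MHCII+ cells, and 3 populations described by the integrins CD11b and CD11c: CD11c+, CD11b+CD11c+ and CD11b+ cells. The tissue rests on the wording of the series, since the sample titles only abbreviate it. None of the groups was labelled as neutrophils. Both splenic titles carry the same replicate number, so splenic replicates 1 and 2 are named in the order of deposit only. The labels do not say how many mice stood behind a library or whether replicates had separate donors, so that p-values measure only the spread between libraries. In bulk RNA, more cells of a type and more RNA per cell cannot be told apart.

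Neutrophils are short-lived granulocytes made in the bone marrow. They make their granules in order as they mature: primary granules first, with myeloperoxidase and serine proteases, then secondary granules with lactoferrin and cathelicidin, then tertiary granules rich in gelatinase. Transcripts of granule proteins are therefore known from precursors, while the receptor Cxcr2 marks late maturation. The calprotectin subunits S100a8 and S100a9 are abundant in the cytosol throughout. Spleen holds neutrophils and their precursors, and healthy colon holds few neutrophils and many eosinophils, the granulocytes of the gut wall.

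Of the set, Ltf, Camp and Ngp lie within a stretch of mouse chromosome 9 (GENCODE M21 on mm10, Ltf at chr9:111019271-111042767, Camp at chr9:109847379-109849617 and Ngp at chr9:110419747-110423012), and S100a8 and S100a9 are neighbours on chromosome 3 (chr3:90668978-90670035 and chr3:90692632-90695721). Mmp8 is at chr9:7558456-7568485, Retnlg at chr16:48872621-48874496, Cxcr2 at chr1:74153989-74161246, Csf3r at chr4:126024550-126044440 and Padi4 at chr4:140745865-140774236. The stretches before the start sites of 5 genes are shown because these genes followed 3 different patterns across the libraries. Ltf, Ngp and S100a9 stood for the genes with a large excess in splenic cells, and Retnlg and Padi4 were the members without one. The sequences are from RefSeq (GRCm38.p6), on the gene's strand, and end before the first base of the gene. Capitals mark matches on either strand to TTNNGNAA, a core of sites bound by C/EBP factors, or to GAGGAA, a core of sites bound by PU.1; both factors are known from myeloid cells.
Ltf, chr9:111019042-111019270, plus strand: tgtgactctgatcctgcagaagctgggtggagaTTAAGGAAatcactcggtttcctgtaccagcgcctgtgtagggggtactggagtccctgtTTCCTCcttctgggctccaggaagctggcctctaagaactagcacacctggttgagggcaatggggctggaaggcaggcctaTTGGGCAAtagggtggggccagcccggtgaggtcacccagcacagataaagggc
Ngp, chr9:110419558-110419746, plus strand: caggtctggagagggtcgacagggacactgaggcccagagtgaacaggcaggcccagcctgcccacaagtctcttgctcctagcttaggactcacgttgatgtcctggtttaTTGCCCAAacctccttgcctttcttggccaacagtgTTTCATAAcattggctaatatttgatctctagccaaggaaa
S100a9, chr3:90695722-90695971, minus strand: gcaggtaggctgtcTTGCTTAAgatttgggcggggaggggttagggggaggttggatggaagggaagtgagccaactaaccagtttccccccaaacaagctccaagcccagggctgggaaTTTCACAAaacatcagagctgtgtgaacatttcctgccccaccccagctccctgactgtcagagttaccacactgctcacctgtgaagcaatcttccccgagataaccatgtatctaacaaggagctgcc
Retnlg, chr16:48872358-48872607, plus strand: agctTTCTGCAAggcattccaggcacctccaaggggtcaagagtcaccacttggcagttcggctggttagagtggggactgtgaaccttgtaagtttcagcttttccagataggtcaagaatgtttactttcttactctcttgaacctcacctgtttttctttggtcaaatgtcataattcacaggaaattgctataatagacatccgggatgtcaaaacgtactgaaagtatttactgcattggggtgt
Padi4, chr4:140774237-140774453, minus strand: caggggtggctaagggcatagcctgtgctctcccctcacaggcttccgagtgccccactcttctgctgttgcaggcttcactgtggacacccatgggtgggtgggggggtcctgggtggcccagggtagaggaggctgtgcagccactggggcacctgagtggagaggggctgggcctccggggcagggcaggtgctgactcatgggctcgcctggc

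All 10 members matched a RefSeq window, and the searches covered the 250 bases before each RefSeq start on both strands. TTNNGNAA was found before 6 of 10 members (S100a8, S100a9, Mmp8, Ngp, Ltf and Retnlg), and before 36.9% of the 32851 windows of all genes. GAGGAA was found before 5 of 10 (Cxcr2, S100a8, Csf3r, Mmp8 and Ltf), against 23.25% of all windows, and TATAAA before 2 of 10 (S100a8 and Padi4), against 12.4%. No match of 1 motif overlapped a match of another before these genes. Ngp had 3 matches to TTNNGNAA, 138, 102 and 11 bases before the RefSeq start; that start lies inside the gene as GENCODE annotates it, so the match at 11 bases falls past the end of the printed stretch and only the other 2 are in capitals. Ltf had 2 and S100a9 had 2, while Padi4 had none of the first and none of the second motif. These matches describe letters and show no binding.

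Levels below are the deposited TPM, a measure of transcript abundance that can be compared between genes. It is scaled by library and by effective length, which kallisto derives from the coding length. Tests are on counts with edgeR's quasi-likelihood test, adjusted over all genes of the fit, with 0.05 as the threshold. The libraries held 12806139 to 41769042 estimated counts, and the replicates of a group correlated at 0.982 to 0.993 over genes (log2 CPM, counts scaled by library). Itgam, the gene of CD11b, was at 4.65 and 5.68 TPM in CD11c+ and at 115 and 113 TPM in CD11b+ cells, and Itgax, the gene of CD11c, at 113 and 132 TPM and, still clearly detected, at 74.2 and 81.1 TPM. Together the 10 genes made up 1.66 and 2.44% of all TPM in the 2 splenic libraries. The share was 0.112 and 0.0770% in colonic MHCII+ cells, 0.132 and 0.117% in CD11b+ cells, 0.0105 and 0.0122% in CD11b+CD11c+ cells, and 0.000164 and 0.000375% in CD11c+ cells.

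**Figure D1:**
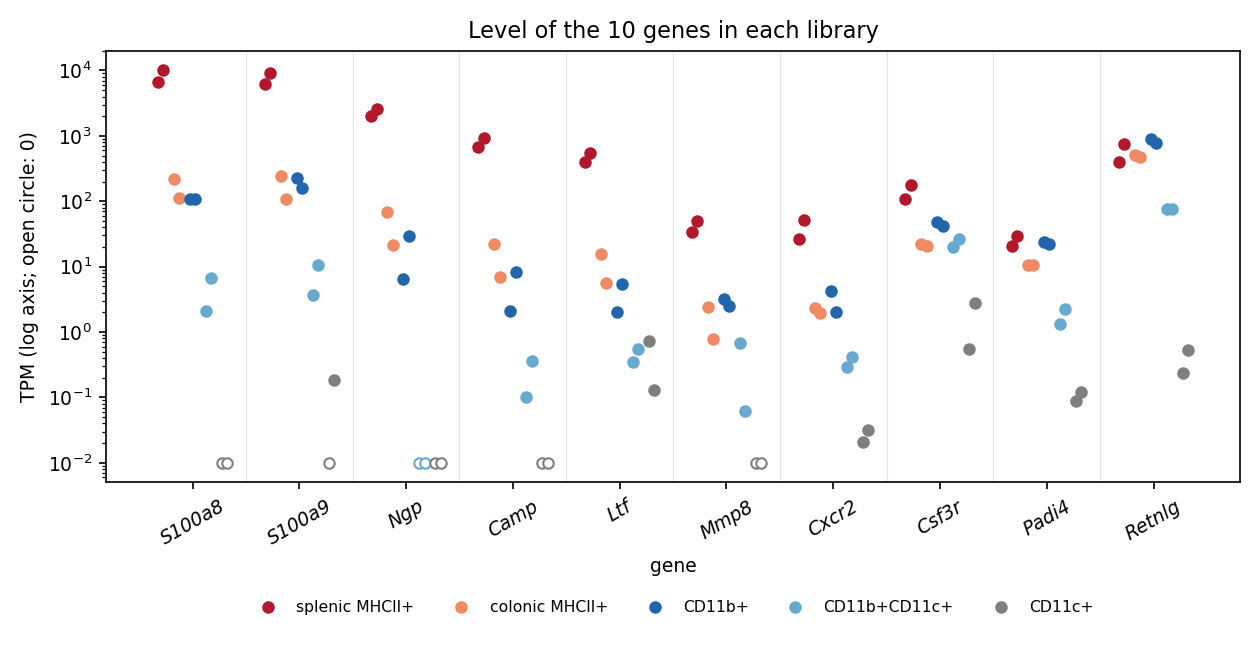
Level of each gene in each of the 10 libraries, as TPM on a log axis, coloured by group; each circle is 1 library and open circles at the bottom are libraries at 0. The splenic libraries stand above all others for S100a8, S100a9, Ngp, Camp, Ltf, Mmp8, Cxcr2 and Csf3r, while Padi4 in CD11b+ cells lies within the splenic range and Retnlg is highest in CD11b+ cells.

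S100a8 and S100a9 encode the subunits of calprotectin, a calcium- and zinc-binding protein of the neutrophil cytosol, and were the most abundant members in the spleen. S100a8 was at 6636 and 10039 TPM in splenic MHCII+ cells and at 215 and 114 TPM in colonic MHCII+ cells. It was at 107 and 109 TPM in CD11b+ cells, 2.07 and 6.63 TPM in CD11b+CD11c+ cells, and 0 in both CD11c+ libraries. The groups did not overlap, and each step in this order separated the libraries completely. S100a9 was at 6283 and 9218 TPM in splenic MHCII+ cells and at 242 and 108 TPM in colonic MHCII+ cells. It was at 224 and 162 TPM in CD11b+ cells, 3.71 and 10.6 TPM in CD11b+CD11c+ cells, and 0 and 0.186 TPM in CD11c+ cells. Here colonic MHCII+ and CD11b+ libraries overlapped, and the other neighbours did not.

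The subunits also moved together within libraries, but not at a constant ratio. S100a8 was 1.06 and 1.09 times S100a9 by TPM in the splenic libraries and 0.891 and 1.05 times in colonic MHCII+ cells. In CD11b+ cells the ratio was 0.479 and 0.676, and in CD11b+CD11c+ cells 0.559 and 0.627. The 4 MHCII libraries thus lay above the 4 libraries of the CD11b+ populations, although CD11b+CD11c+ cells had 22 counts of S100a8 and 58 of S100a9 in all. The MHCII libraries were sorted in another way than the rest, so set and sort cannot be told apart in this ratio.

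Ltf (lactoferrin, an iron-binding protein), Camp (the cathelicidin precursor, an antimicrobial peptide) and Ngp (neutrophilic granule protein) are contents of secondary granules. Ngp was at 2049 and 2599 TPM in splenic MHCII+ cells and at 68.5 and 21.2 TPM in colonic MHCII+ cells. It was at 6.45 and 29.1 TPM in CD11b+ cells, and no library of CD11b+CD11c+ or CD11c+ cells had a count. Camp was at 679 and 928 TPM in splenic MHCII+ cells, 22.1 and 6.98 TPM in colonic MHCII+ cells and 2.09 and 8.30 TPM in CD11b+ cells. For both genes the splenic libraries were far above all others and the colonic MHCII+ and CD11b+ libraries overlapped. Camp was nearly absent elsewhere, with 1 and 3 counts in CD11b+CD11c+ cells (0.103 and 0.359 TPM) and none in CD11c+ cells. A count of 0 allows up to 3 counts, which is 0.122 and 0.184 CPM in the CD11c+ libraries and 0.195 and 0.219 in the CD11b+CD11c+ libraries, for counting error only.

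Ltf was at 397 and 556 TPM in splenic MHCII+ cells, 15.5 and 5.58 TPM in colonic MHCII+ cells and 1.99 and 5.43 TPM in CD11b+ cells. Those 3 groups did not overlap by TPM, but colonic MHCII+ replicate 2 and CD11b+ replicate 2 were close. The former had 309 counts of Ltf among 17935568, and the latter 338 among 17709110. By counts scaled by library, colonic MHCII+ and CD11b+ cells therefore overlapped. By TPM of the most abundant Ltf transcript alone, CD11b+ replicate 2 was also the higher of these libraries. Ltf was at 0.350 and 0.548 TPM in CD11b+CD11c+ cells and at 0.741 and 0.129 TPM in CD11c+ cells, on 14 and 5 and on 14 and 9 counts. At that level the 2 groups overlapped, and the TPM of Ltf depended on which of its 9 annotated transcripts took the few reads. Mmp8, neutrophil collagenase, was the least abundant of the 4 granule members in both MHCII+ groups, at 33.5 and 49.6 TPM in splenic MHCII+ cells and 2.39 and 0.773 TPM in colonic MHCII+ cells. It was at 3.18 and 2.51 TPM in CD11b+ cells, 0.675 and 0.0611 TPM in CD11b+CD11c+ cells (25 and 2 counts) and 0 in CD11c+ cells. No neighbouring groups overlapped for Mmp8.

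Camp and Ngp kept a narrow ratio wherever Ngp was detected. Camp was 0.332 and 0.357 times Ngp in the splenic libraries, 0.322 and 0.329 times in colonic MHCII+ cells, and 0.324 and 0.285 times in CD11b+ cells, although their levels ranged over more than 2 orders of magnitude. In CD11b+ replicate 1 the ratio rested on 17 counts of Camp and 50 of Ngp, so it was loosely measured there. Ngp relative to S100a9 was less even: 0.326 and 0.282 in splenic, 0.283 and 0.196 in colonic MHCII+, and 0.0288 and 0.1802 in CD11b+ cells. Across the 10 libraries, log2(TPM + 1) of Ltf correlated at 0.997 with Camp and at 0.980 with Ngp, a description over libraries that share their groups.

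Cxcr2 and Csf3r are surface receptors: Cxcr2 binds the chemokines that draw neutrophils out of marrow and into tissue, and Csf3r binds G-CSF, the growth factor of the lineage. Cxcr2 was at 26.1 and 52.2 TPM in splenic MHCII+ cells, 2.30 and 1.94 TPM in colonic MHCII+ cells and 4.21 and 2.02 TPM in CD11b+ cells. It was at 0.295 and 0.418 TPM in CD11b+CD11c+ cells and at 0.0205 and 0.0316 TPM in CD11c+ cells, where each library had 1 count. The colonic MHCII+ and CD11b+ libraries overlapped, and the other neighbours did not. Csf3r was at 107 and 179 TPM in splenic MHCII+ cells, 48.3 and 42.0 TPM in CD11b+ cells, 20.3 and 26.4 TPM in CD11b+CD11c+ cells and 22.3 and 20.6 TPM in colonic MHCII+ cells. It was at 0.553 and 2.76 TPM in CD11c+ cells. Csf3r thus differed from the other members in its order: CD11b+CD11c+ cells, which had 16.3% of the mean splenic level of Csf3r but 0.911% of that of Cxcr2 and 0.0921% of that of S100a9, overlapped with colonic MHCII+ cells.

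The ratio of Csf3r to Cxcr2 by TPM spread accordingly. It was 4.09 and 3.44 in splenic MHCII+ cells, 9.71 and 10.6 in colonic MHCII+ cells and 11.5 and 20.8 in CD11b+ cells. In CD11b+CD11c+ cells it was 69.0 and 63.1, on 8 and 10 counts of Cxcr2. The libraries of these 4 groups did not overlap, and CD11c+ cells had 27.0 and 87.3 on 1 count of Cxcr2 each.

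**Figure D2:**
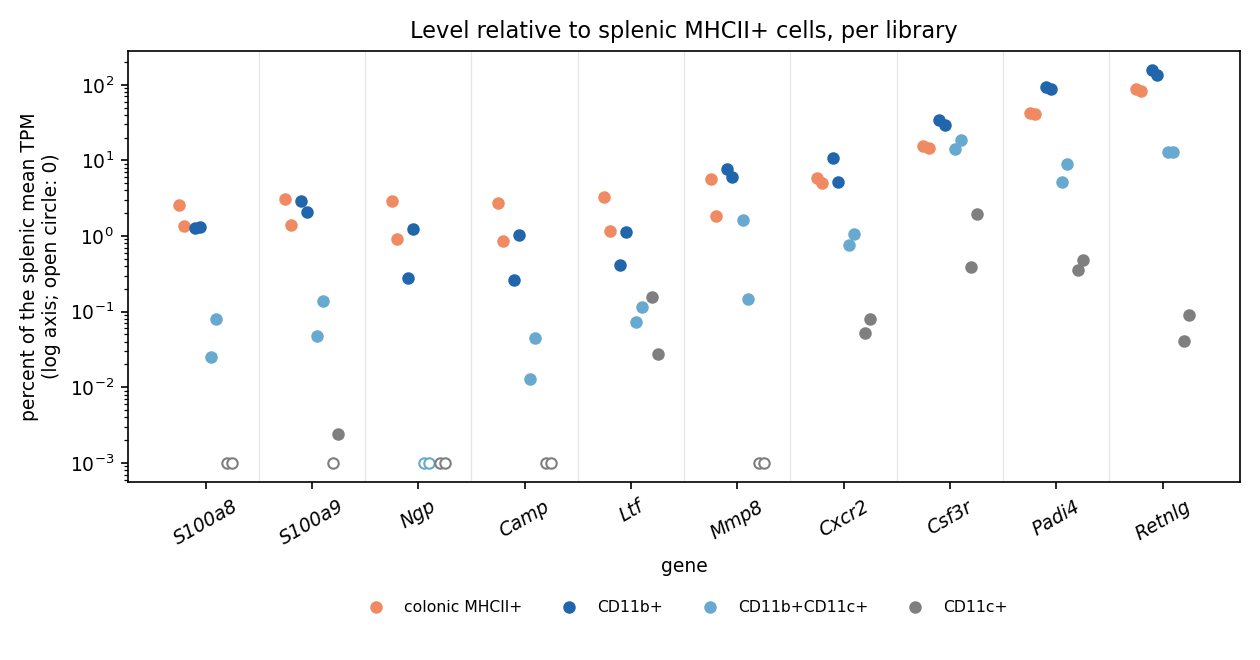
Level of each gene in each colonic library as a percent of the gene's mean TPM in the splenic MHCII+ libraries, on a log axis; open circles at the bottom are libraries at 0. Colonic MHCII+ cells average 1.81 to 5.42% for the granule genes, the calprotectin genes and Cxcr2, against 15.0% for Csf3r, 41.8% for Padi4 and 85.9% for Retnlg.

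Retnlg encodes a resistin-like secreted protein found in neutrophils, and Padi4 encodes the enzyme that turns arginine of histones into citrulline, a step known from neutrophil extracellular traps. Retnlg was at 402 and 761 TPM in splenic MHCII+ cells and at 518 and 480.2 TPM in colonic MHCII+ cells. It was at 901 and 783 TPM in CD11b+ cells, 76.1 and 74.9 TPM in CD11b+CD11c+ cells, and 0.235 and 0.523 TPM in CD11c+ cells. The CD11b+ libraries were the highest, and the colonic MHCII+ libraries lay between the 2 splenic ones. In the 6 libraries of colonic MHCII+, CD11b+ and CD11b+CD11c+ cells, Retnlg was the most abundant of the 10 genes. Retnlg was 2.14 and 4.43 times S100a9 by TPM in colonic MHCII+ cells, 4.02 and 4.84 times in CD11b+ cells and 20.5 and 7.09 times in CD11b+CD11c+ cells, and 0.0639 and 0.0825 times in splenic cells.

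Padi4 was at 20.5 and 29.9 TPM in splenic MHCII+ cells, 23.5 and 22.0 TPM in CD11b+ cells and 10.6 and 10.5 TPM in colonic MHCII+ cells. It was at 1.31 and 2.29 TPM in CD11b+CD11c+ cells and at 0.0890 and 0.123 TPM in CD11c+ cells. The CD11b+ libraries lay within the splenic range, and the other neighbours did not overlap. Reads of Retnlg can be divided with its paralogs, yet the estimated count of Retnlg was whole, within 0.01, in every library but 1. The paralog Retnla, known from alternatively activated macrophages, had another pattern, at 6.46 and 9.82 TPM in splenic and 543 and 387 TPM in CD11b+CD11c+ cells.

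Between the MHCII+ populations, 9 of 10 members were lower in colonic cells, where 28.7% of the 15076 genes tested were called lower, 31.6% higher and 60.3% in either direction. The members' median log2 fold change was -4.88, and that of all genes 0.02. Ltf showed the largest difference, with a log2 fold change of -5.64 ± 0.42 (SE; adjusted p = 6.99e-05), a 50.03-fold lower level. S100a8, S100a9, Camp and Ngp were close to it, at -5.50, -5.31, -5.59 and -5.53. Mmp8 had -4.46 ± 0.43 (adjusted p = 0.000216), Cxcr2 -4.02 ± 0.34 (adjusted p = 0.000117) and Csf3r -2.57 ± 0.22 (adjusted p = 0.000122).

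Padi4 and Retnlg stood apart from these 8. Padi4 was 2.13-fold lower (log2 fold change -1.09 ± 0.16, adjusted p = 0.00135). Retnlg did not pass the test (-0.03 ± 0.28, adjusted p = 0.938), and its direction was set by the splenic libraries. Without splenic replicate 1 it was -0.44 (adjusted p = 0.0373), and without splenic replicate 2 it was 0.50 (adjusted p = 0.0234). Without colonic replicate 1, the library richer in granule transcripts, the log2 fold changes were larger for S100a9 (-5.90), Ltf (-6.44), Camp (-6.64), Ngp (-6.56) and Mmp8 (-5.61).

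Other cells' markers moved with this comparison too, where 28.7% of all genes tested were called lower and 31.6% higher. All 7 B cell genes were lower in colonic cells (summed level 57.0 and 47.2 TPM against 1039 and 1135 TPM), and all 7 epithelial genes were higher (2284 and 2550 TPM against 6.48 and 8.70 TPM). The B cell and epithelial genes' part in the members' result was not tested.

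CD11b+ cells were compared with CD11c+ cells of the colonic set, and 10 of 10 members were higher in CD11b+ cells, where 27% of the 14225 genes tested were called higher, 25% lower and 52% in either direction. The members with few or no CD11c+ counts passed the count filter only through other libraries and had to differ, so the count supports nothing by itself. Padi4 was 207-fold higher (log2 fold change 7.69 ± 0.34, adjusted p = 0.000141), Csf3r 26.5-fold (4.73 ± 0.70, adjusted p = 0.00285) and Ltf 23.3-fold (4.54 ± 0.70, adjusted p = 0.00336). Of the genes with no count in CD11c+ cells, Ngp was at least 72.5-fold, Mmp8 at least 47.0-fold and Camp at least 22.3-fold higher, and S100a8 at least 138-fold higher, against a floor of 3 counts per library. S100a9, with 1705 against 1 count, had a ratio of 2400.1 (95% exact binomial interval 430.2 to 94853), and Retnlg, with 8049 against 5 counts, a ratio of 2266 (971 to 6981). Cxcr2, with 160 against 2 counts, had a ratio of 113 (95% exact binomial interval 30.7 to 938). These intervals hold counting error only and leave out the spread between libraries. The members' median log2 fold change was 9.34 as fitted, and 6.42 with the 4 genes at 0 set to their bounds, against -0.02 for all genes. Csf3r was 3.93 without CD11c+ replicate 1 and 6.28 without CD11c+ replicate 2, and Ltf was 5.15 and 3.37 without CD11b+ replicate 1 or 2. With DESeq2 the call of Ngp was lost (adjusted p = 0.0616). Other cells' markers moved too: in CD11b+ cells all 9 macrophage genes were higher (summed level 3735 and 4260 TPM against 140 and 655 TPM), all 8 T and NK cell genes lower (29.3 and 26.7 against 650 and 215 TPM) and 8 of 9 genes of conventional dendritic cells lower (144 and 139 against 970 and 1079 TPM). Of 7 stromal and endothelial genes, 6 were higher (539 and 469 against 154 and 175 TPM). Their part in the members' differences was not tested.

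CD11b+CD11c+ cells were above CD11c+ cells for 7 of 10 members, where 20.4% of the genes tested were called higher, 22.5% lower and 43% in either direction. S100a8, S100a9, Retnlg, Cxcr2, Mmp8 and Padi4 had 0 to 17 counts in CD11c+ cells and passed the count filter through other libraries. The number of members called therefore supports nothing by itself here either. Retnlg had the smallest adjusted p, 0.000162, with 684 against 5 counts and a ratio of 213 (95% exact binomial interval 90.8 to 658, for counting error only). Padi4 was 16.8-fold higher (log2 fold change 4.07 ± 0.37, adjusted p = 0.000857) and Csf3r 14.2-fold (3.83 ± 0.67, adjusted p = 0.00631). Without CD11c+ replicate 1 or 2, Csf3r was at 3.04 or 5.38. Of the granule members, Ltf, Camp and Ngp were not called: Ltf had a log2 fold change of 0.34 ± 0.90 (adjusted p = 0.780), Camp had 4 counts against 0 (adjusted p = 0.205), and Ngp had no count in either group. The calls of Mmp8 (27 counts against 0, adjusted p = 0.0351) and Cxcr2 (18 against 2 counts, adjusted p = 0.0158) were the weakest, and both were lost with limma on log2(TPM + 1), at adjusted p = 0.235 and 0.296. Mmp8 was also lost without CD11c+ replicate 1, CD11b+CD11c+ replicate 1 or either CD11b+ library (adjusted p = 0.0702 to 0.0863), and Cxcr2 without CD11c+ replicate 1 or CD11b+CD11c+ replicate 2 (adjusted p = 0.0766 and 0.0748). As before, all 9 macrophage genes were higher (4051 and 5399 TPM in CD11b+CD11c+ cells), all 8 T and NK cell genes lower (52.6 and 23.0 TPM) and 8 of 9 dendritic cell genes lower (547 and 380 TPM), and their part was not tested.

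CD11b+ cells were above CD11b+CD11c+ cells for 7 of 10 members, where 5.84% of the 14225 genes tested were called higher, 3.79% lower and 9.63% in either direction. S100a8, Ltf, Ngp and Cxcr2 had 0 to 22 counts in CD11b+CD11c+ cells and passed the count filter only with the CD11b+ libraries. Neither this count nor the members' median therefore supports anything by itself. The members' median log2 fold change was 3.91, which setting Ngp to its bound did not move, and that of all genes was -0.01. S100a9 was 26.8-fold higher (log2 fold change 4.74 ± 0.43, adjusted p = 0.00287), S100a8 24.9-fold (4.64 ± 0.43, adjusted p = 0.00495), Padi4 12.3-fold (3.62 ± 0.25, adjusted p = 0.00152) and Retnlg 10.8-fold (3.43 ± 0.15, adjusted p = 0.000846). These 4 had the smallest adjusted p of the members. Ltf had 4.196 ± 0.717 (adjusted p = 0.0183), Cxcr2 3.05 ± 0.48 (adjusted p = 0.0145), and Ngp, with 357 counts against 0, was at least 48.9-fold higher (adjusted p = 0.0465).

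The other members were not called between these groups: Csf3r had 0.90 ± 0.59 (adjusted p = 0.396), Camp 4.45 ± 1.02 (adjusted p = 0.0600) and Mmp8 2.85 ± 0.77 (adjusted p = 0.0887). The calls of S100a9, Retnlg and Padi4 held under every alternative run. Leaving out a library of either group ended others: Cxcr2 was lost without CD11b+ replicate 1 or either CD11b+CD11c+ library (adjusted p = 0.0645 to 0.113), Ltf and Ngp without CD11b+ replicate 2 or either CD11b+CD11c+ library (adjusted p = 0.0683 to 0.167), and S100a8 without CD11b+ replicate 1 (adjusted p = 0.0616). DESeq2 ended the call of Ngp (adjusted p = 0.192) and limma that of Ltf (adjusted p = 0.0956 and 0.128), while Camp and Mmp8 were called by DESeq2 (adjusted p = 0.00349 and 0.0187) and with no count filter (0.0149 and 0.0246). Without CD11b+CD11c+ replicate 1 or 2, S100a8 was at 4.01 or 5.53 and S100a9 at 4.16 or 5.54. Ltf was at 4.81 or 2.98 without CD11b+ replicate 1 or 2 and at 4.99 without CD11b+CD11c+ replicate 1, and Cxcr2 at 2.46 without CD11b+ replicate 1. Of all genes called, 60.7% were higher in CD11b+ cells, against 44.2% with no count filter, 39.5% with all 10 libraries in the fit, 49.98% with DESeq2 and 72.9 and 71.9% with limma. Of the dendritic cell genes 8 of 9 were lower and of the stromal and endothelial genes 4 of 7 higher in CD11b+ cells (for the latter 539 and 469 against 109 and 96.1 TPM), and their part was not tested.

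**Figure D3:**
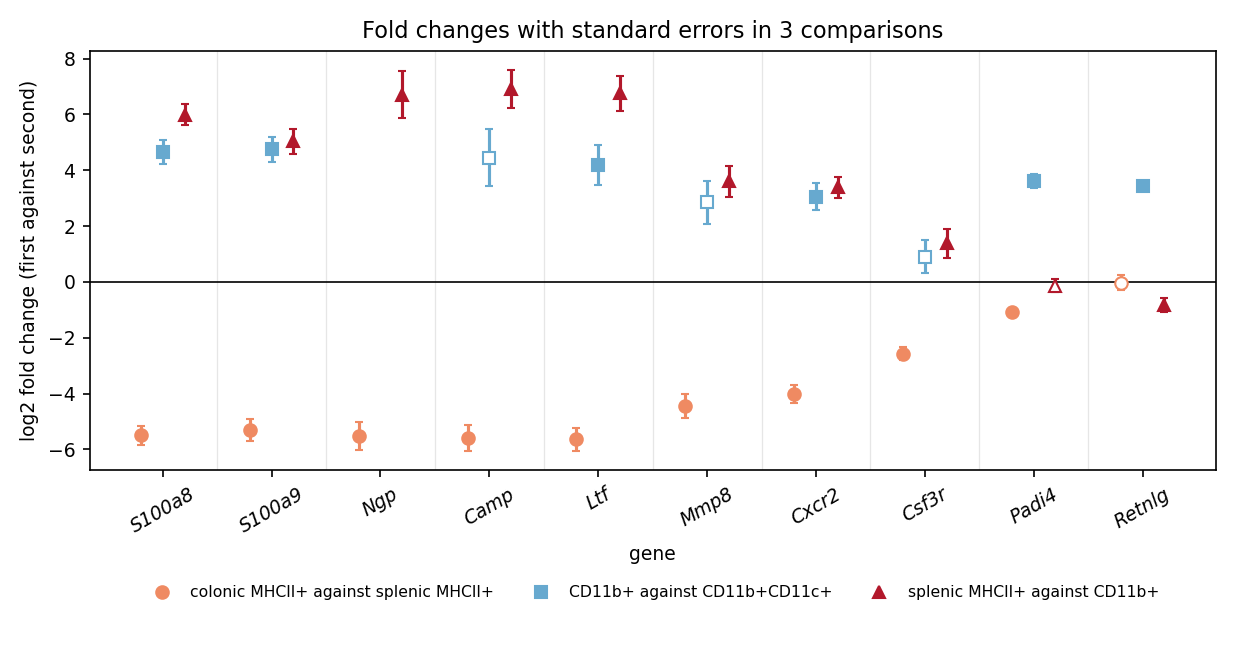
Log2 fold change of each gene in 3 comparisons, with its standard error; filled symbols passed the test (edgeR, adjusted p under 0.05), open ones did not, and Ngp is left out where a group had no count. The differences between colonic and splenic MHCII+ cells shrink from -5.64 for Ltf to -0.03 for Retnlg.

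Splenic MHCII+ cells were set against CD11b+ cells in the fit of all 10 libraries, where set, tissue and sort cannot be told apart. Of 10 members 8 were higher and 1 lower in splenic cells, where 34% of the 15074 genes tested were called higher, 32.7% lower and 66.7% in either direction. Camp was 121-fold, Ltf 108-fold and Ngp 105-fold higher, on log2 fold changes of 6.92 ± 0.68, 6.76 ± 0.63 and 6.71 ± 0.84. Without CD11b+ replicate 2, which held most of their CD11b+ counts, these were 8.32, 7.92 and 8.23, and without replicate 1 they were 6.30, 6.16 and 6.03. Cxcr2 was 10.5-fold higher (3.39 ± 0.38, adjusted p = 6.94e-05). Retnlg was lower by 0.82 ± 0.25 on the log2 scale (-0.82, adjusted p = 0.0177), a call lost without CD11b+ replicate 1 (adjusted p = 0.0901) and with limma (adjusted p = 0.0841 on log2(TPM + 1) and 0.162 on log2(TPM + 0.1)). Padi4 was not called (-0.14 ± 0.22, adjusted p = 0.603). Csf3r passed narrowly (1.38 ± 0.51, adjusted p = 0.04) and was lost with DESeq2 (adjusted p = 0.0767), with its size factors (adjusted p = 0.0560) and without splenic replicate 2 or either CD11b+ library (adjusted p = 0.120 to 0.182). Of all genes called, 51.0% were higher in splenic cells, against 62.1% with limma on log2(TPM + 1).

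In colonic MHCII+ and CD11b+ cells, the libraries of a group differed most in Ngp and Camp. In colonic MHCII+ cells, replicate 1 was above replicate 2 by 3.23 times for Ngp, 3.16 times for Camp, 3.09 times for Mmp8 and 2.77 times for Ltf, but by 1.08 times for Retnlg and for Csf3r and 1.01 times for Padi4. In CD11b+ cells, replicate 2 was above replicate 1 by 4.51 times for Ngp, 3.97 times for Camp and 2.73 times for Ltf, while Retnlg, Csf3r and Padi4 differed by 1.15, 1.15 and 1.07 times in the other direction. Cxcr2, S100a9 and Mmp8 also differed in that other direction, by 2.09, 1.39 and 1.27 times, so that Mmp8 did not go with the other granule members in CD11b+ cells. Retnlg, Csf3r and Padi4 thus differed by at most 1.15 times in both groups. Hbb-bs, a red cell globin, was higher in the same library of each pair, at 1649 and 1026 TPM in colonic MHCII+ cells and 20.6 and 54.3 TPM in CD11b+ cells. Its part in these differences was not tested.

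Retnlg and Padi4 were set beside eosinophil transcripts after their values were seen. Ccr3, the eotaxin receptor, was at 71.5 and 60.4 TPM in CD11b+ cells, 39.4 and 37.6 TPM in colonic MHCII+ cells, 3.69 and 7.49 TPM in CD11b+CD11c+ cells and 9.73 and 19.6 TPM in splenic cells. Relative to the CD11b+ mean, Retnlg was at 59.3%, Padi4 at 46.2%, Ccr3 at 58.4% and Alox15, a lipoxygenase abundant in eosinophils, at 48.5% in colonic MHCII+ cells. In CD11b+CD11c+ cells these 4 were at 8.97, 7.89, 8.47 and 9.91%. Ccr3 and Alox15 were picked from the 9 eosinophil genes, and others lay elsewhere: in the same order of groups Siglecf was at 46.7 and 25.2%, and Epx at 63.4 and 83.8% on at most 3 counts a library. Ear2, the most abundant gene of that list in splenic cells, was higher in CD11b+CD11c+ cells (23.1 and 25.4 TPM) than in CD11b+ cells (5.93 and 9.70 TPM). S100a9 was at 90.7 and 3.70% in these groups, and Ngp at 252% and 0.

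The ratio of Retnlg to Ccr3 by TPM was 13.2 and 12.8 in colonic MHCII+ cells, 12.6 and 12.96 in CD11b+ cells and 20.6 and 10.002 in CD11b+CD11c+ cells, and 41.3 and 38.8 in splenic cells. The ratio of Padi4 to Ccr3 was 0.269 and 0.278, 0.329 and 0.364, 0.354 and 0.306, and 2.10 and 1.53 in the same order. These 6 libraries thus lay below the splenic ones in both ratios. CD11c+ cells, with few counts of both genes, had 1.04 and 8.28 for Retnlg and 0.395 and 1.95 for Padi4, and the last value lay within the splenic range. Over the 10 libraries, log2(TPM + 1) of Retnlg correlated at 0.938 with Ccr3, 0.925 with Alox15 and 0.925 with Siglecf, but at 0.338 with Epx and 0.129 with Prg2, whose products fill eosinophil granules. Retnlg also correlated at 0.887 with Csf3r and at 0.826 with S100a9. Padi4 correlated at 0.929 with S100a9 and at 0.906 with S100a8, above its 0.885 with Ccr3 and 0.840 with Alox15. Ltf correlated at 0.344 with Ccr3 and at 0.837 with Epx. All 9 eosinophil genes summed to 120 and 117 TPM in colonic MHCII+, 232 and 382 in splenic, 187 and 172 in CD11b+, 42.4 and 49.5 in CD11b+CD11c+ and 15.2 and 21.8 TPM in CD11c+ cells, where Ear1, Ear6 and Epx were at 0. The part of eosinophil transcripts in the levels of Retnlg and Padi4 was not tested.

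**Figure D4:**
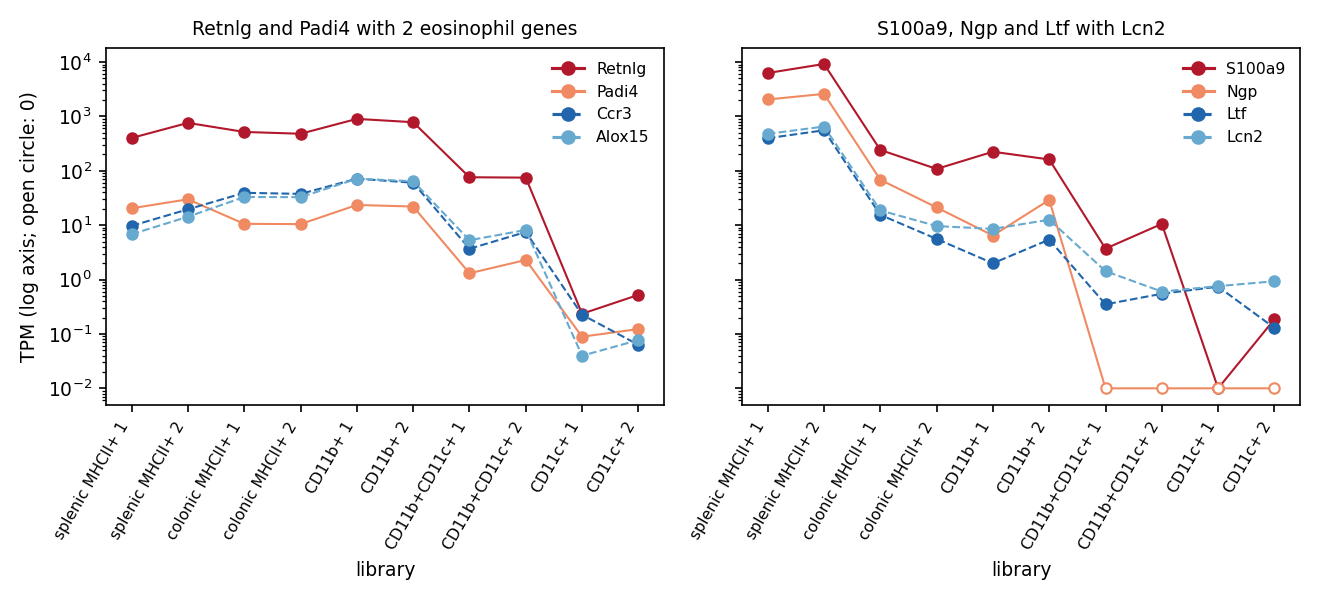
TPM on a log axis in the 10 libraries, in the order splenic MHCII+, colonic MHCII+, CD11b+, CD11b+CD11c+, CD11c+; open circles are libraries at 0 and lines only join the libraries of a gene. Left, Retnlg and Padi4 run beside Ccr3 and Alox15 in the 6 libraries of colonic MHCII+, CD11b+ and CD11b+CD11c+ cells. Ccr3 and Alox15 were picked from 9 eosinophil genes. Of these 9, only those 2 were higher in colonic than in splenic MHCII+ cells, and 5 were lower. Right, S100a9, Ngp and Ltf run beside Lcn2 from the splenic libraries to the colonic MHCII+ ones.

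Other genes of the neutrophil programme were counted from fixed lists without the members. All 5 tested primary granule genes, of 6 listed, were lower in colonic than in splenic MHCII+ cells, against 28.7% of all genes tested. All but Prtn3 passed the count filter only with the splenic libraries, so the count supports nothing by itself. Levels of these genes were low even in spleen. Elane, neutrophil elastase, was at 15.7 and 17.8 TPM there and Mpo, myeloperoxidase, at 12.3 and 16.1 TPM. The list summed to 48.9 and 58.3 TPM in splenic, 4.14 and 1.03 TPM in colonic MHCII+ and 2.16 and 2.12 TPM in CD11b+ cells. Elane and Mpo also mark promyelocytes. The proliferation gene Mki67 was at 23.5 and 21.1 TPM in splenic and 17.6 and 16.7 TPM in colonic MHCII+ cells. That difference was not called (log2 fold change -0.18, adjusted p = 0.206). Mki67 was highest in CD11b+CD11c+ cells, at 33.0 and 34.3 TPM, where Elane had no count. Which cells carried Mki67, and whether it bore on the granule genes, was not tested.

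Of 9 further secondary and tertiary granule genes, 7 were lower in colonic MHCII+ cells and 1 higher, against 28.7% lower and 31.6% higher of all genes tested. Lcn2, the siderophore-binding lipocalin, was at 478 and 651 TPM in splenic and 18.7 and 9.64 TPM in colonic MHCII+ cells (log2 fold change -5.13, adjusted p = 3.3e-05). The exception, Mmp25, a membrane-bound protease, was at 6.95 and 8.01 TPM in splenic and 37.5 and 31.0 TPM in colonic MHCII+ cells. Mmp9, gelatinase B, was at 71.0 and 109 TPM in splenic, 45.2 and 45.3 TPM in CD11b+, 20.3 and 28.3 TPM in CD11b+CD11c+ and 19.0 and 16.3 TPM in colonic MHCII+ cells. Against CD11b+CD11c+ cells, CD11b+ cells were higher for 4 of 7 tested genes of this list, where 5.84% of all genes tested were called higher. Some of these genes, with few counts in CD11b+CD11c+ cells, passed the count filter only with the CD11b+ libraries. That count therefore supports nothing by itself.

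Of 17 further surface genes, 10 were lower in colonic than in splenic MHCII+ cells and 6 higher, against 28.7% lower and 31.6% higher of all genes tested. The most abundant ones were on the higher side. Il1r2, the decoy receptor of interleukin-1, was at 370.5 and 351 TPM in colonic and 25.8 and 16.7 TPM in splenic MHCII+ cells, and Clec4e, a C-type lectin, at 383 and 368 against 41.3 and 27.9 TPM. Il1r2 was at 1040 and 997 TPM in CD11b+CD11c+ and 478 and 613 TPM in CD11c+ cells, where the members are lowest. C5ar1 and Clec4d, receptors shared with macrophages and monocytes, were also higher in colonic MHCII+ cells.

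Of 11 further genes of the cytosol, 9 were tested and all 9 were lower in colonic MHCII+ cells, against 28.7% lower and 31.6% higher of all genes tested. Some of them, with few counts in colonic MHCII+ cells, passed the count filter only through the splenic libraries. Pglyrp1, a peptidoglycan-binding protein, was at 111 and 111 TPM against 210.2 and 282 TPM, and Lyz2, lysozyme of all myeloid cells, at 2740.5 and 2368 against 4676 and 5508 TPM. Of 8 granulocyte transcription factors, 1 was higher, 1 lower and 6 not called. Spi1, which encodes PU.1, was at 398 and 435 TPM in splenic, 318 and 284 TPM in colonic MHCII+ and 458 and 459 TPM in CD11b+ cells. Of the 6 subunits of the phagocyte oxidase, 2 were lower, 1 higher and 3 not called.

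Lists of neighbouring myeloid cells were counted in the same way. Of all genes tested, 28.7% were called lower and 31.6% higher in colonic than in splenic MHCII+ cells. Of 9 monocyte genes, 7 were lower in colonic MHCII+ cells and 1 higher, with Ly6c2 at 261 and 178 against 365 and 442 TPM. Of 9 macrophage genes, 7 were higher and 2 not called, with C1qb, a complement subunit, at 262 and 256 against 32.9 and 39.0 TPM. Against CD11b+CD11c+ cells, 5 of 9 monocyte genes were higher in CD11b+ cells, and of 6 tested eosinophil genes 4 were higher and 1, Ear2, lower. In that comparison 5.84% of all genes tested were called higher and 3.79% lower. Of the 9 eosinophil genes, 2 (Ccr3 and Alox15) were higher and 5 lower in colonic than in splenic MHCII+ cells.

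The genes most like the members in pattern were ranked by the correlation of log2(TPM + 1) over the 10 libraries among 9080 genes with at least 10 TPM in 2 libraries. For the mean of Ltf, Camp and Ngp the first were Lcn2 (0.993) and Ly6g (0.989), the surface antigen used to sort mouse neutrophils, followed by Tusc1, Arhgef37, Irf3, Sertad3, Arhgef18 and Kri1 (0.989 to 0.981). Ly6g was at 74.2 and 93.3 TPM in splenic, 8.23 and 4.58 TPM in colonic MHCII+ and 0.941 and 2.81 TPM in CD11b+ cells. For the mean of Cxcr2 and Csf3r they were Sirpb1b (0.998), Ctdsp1, Il17ra, Relt, Zfp143, Fhod1, Sirpb1c and Arid3a (0.986 to 0.981).

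Retnlg and Padi4 were given profiles of their own after their values were seen. The genes most like Retnlg were Prdx5 (0.997), Sphk2, Cd300lf, Aprt, Adgre4, Arhgef10l, Cd300lb and Aldh2 (0.986 to 0.974). Those most like Padi4 were Gsr (0.993), G0s2, Msrb1, Cebpe (0.975), Dusp6, Cd300lf, Tmem38b and Orai2 (down to 0.968). None of the 8 genes named for Ltf, Camp and Ngp was among those for Retnlg or Padi4, while Cd300lf was named for both of the latter. None of these 8 was among those for Cxcr2 and Csf3r either. Lists of 8 among 9080 genes are short, so a lack of overlap supports nothing by itself. With 5 groups behind 10 libraries, these correlations describe group levels.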

How the data were processed

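Directional NEBNext libraries were made from polyadenylated RNA, per the labels' protocols. The authors deposited 1 transcript table per library with estimated counts and TPM from kallisto, per the file headers; the deposited lengths and effective lengths are other per-transcript values in bases. Tools named in the submitters' processing notes are kallisto 0.44.0 and sleuth, and the build is mm10; no source here gives the index or strand setting. Of 66760 transcripts, 65747 (98.5%) matched GENCODE M21 by identifier and gave 22607 genes; the rest held 0.532 to 0.912% of a library's counts and were left out. Of transcript lengths, 88.9% were multiples of 3, so lengths are coding lengths.

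Counts were summed per gene, rounded, filtered (filterByExpr), TMM-normalized and tested with edgeR 4.0.16 in R 4.3.3 (quasi-likelihood, group only, Benjamini-Hochberg over all genes), in 1 fit for the 4 MHCII libraries, 1 for the 6 others and 1 for all 10 (splenic against CD11b+). The tests were checked on simulated counts. Depths of 12806139 to 41769042 counts make 1 count worth 0.0241 to 0.0786 CPM. Alternatives were DESeq2 1.42.0 and its size factors, no filter, limma 3.58.1 on log2(TPM + 1) or log2(TPM + 0.1), other sample sets, a replicate block and leaving out each library. The members and gene lists were chosen with earlier results of these data known. Text names all members, from each neutrophil or related list up to 4 genes with the highest mean TPM, and the 8 genes most alike; Epx, Siglecf, Ear1 and Ear6 fall outside this rule and were chosen after their values were seen.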

Additional observations from a re-analysis of the deposited data

How the results depend on the processing

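With 2 libraries a group, counts of calls moved most when a library was left out, and a lone library was then assumed to vary like the other groups. The number of members called stayed at 9 to 10 (main 9) for colonic against splenic MHCII+, 9 to 10 (main 10) for CD11b+ against CD11c+, 5 to 7 (main 7) for CD11b+CD11c+ against CD11c+ and 7 to 9 (main 9) for splenic against CD11b+ cells over all alternatives. For CD11b+ against CD11b+CD11c+ cells it was 7, and 4 to 9 with 1 library left out; the 4 came without CD11b+CD11c+ replicate 2. Genes called numbered 7392 for CD11b+ against CD11c+ cells, and 4372 to 7089 with 1 library left out, the lowest without CD11b+ replicate 1 (4372) or 2 (4473). For CD11b+CD11c+ against CD11c+ cells they numbered 6110, and 3190 to 5707, the lowest without CD11b+CD11c+ replicate 2, when 64.6% of calls were higher against 47.6%. For CD11b+ against CD11b+CD11c+ cells they numbered 1370, and 226 to 1748, with 226 and 434 without CD11b+ replicate 1 or 2 and 474 and 771 without CD11b+CD11c+ replicate 1 or 2; limma gave 844 on log2(TPM + 1) and 743 on log2(TPM + 0.1), and DESeq2 2029. Log2 fold changes changed sign for 3 members that were not called with all libraries: Retnlg between colonic and splenic MHCII+ cells (-0.03, with -0.44 without splenic replicate 1 and 0.50 without splenic replicate 2), Ltf between CD11b+CD11c+ and CD11c+ cells (0.34, and -0.46 without CD11b+CD11c+ replicate 1) and Padi4 between splenic and CD11b+ cells (-0.14, and 0.08 without splenic replicate 1 and 0.12 with limma at either pseudocount). The cause of these changes was not tested, beyond fewer libraries in the fit. Limma on TPM moved the median of all genes by -0.13 and -0.16 for colonic against splenic MHCII+ cells and by 0.18 and 0.23 for splenic against CD11b+ cells.

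Same-numbered libraries of the CD11b and CD11c set deviated together at 0.25, -0.06 and -0.01 (Pearson, over genes), so the numbers were not taken to pair them. With the replicate block, 8 members were called for CD11b+ against CD11b+CD11c+ cells, Camp being added (adjusted p = 0.0196), and 1427 genes in place of 1370; for the other comparisons of this set 7316 and 6075 genes were called, with no change among members. No paired analysis was possible for the MHCII set because the splenic libraries are not told apart by number in their titles, so its groups share fewer than 2 numbers. Members with under 30 counts in a group (S100a8, Ngp, Mmp8, Cxcr2, Camp and Ltf in CD11b+CD11c+ cells, and every member but Csf3r in CD11c+ cells) were limited by depth.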
